A study of Homo sapiens with 2 samples.

Results

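The RNAs described here are 7SL, the RNA of the signal recognition particle, and other noncoding RNAs that work as folded molecules or scaffolds: 7SK, RMRP, RPPH1, TERC, MALAT1 and NEAT1. They were chosen by symbol, as the rows named RN7SL1, RN7SL2, RN7SK, RMRP, RPPH1, TERC, MALAT1 or NEAT1 among the 50868 gene rows of the table. Of these 8 symbols, 7 matched 9 rows, since RN7SL1 and RMRP each have 2 rows at the same place, and RN7SK matched no row by symbol. RN7SL1 and RN7SL2 were summed as 7SL because their sequences are near-identical, which gave 7 RNAs in all. The set was proposed with the counts of these libraries known, so the differences of its members between the libraries are a description and carry no test.

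RNA-seq was performed on Molm13, an established cell line from a human AML with the KMT2A::MLLT3 fusion. The 2 libraries came from control cells with the empty vector (Vector, 1 library) and from cells labelled as overexpressing UNC5B (OE-UNC5B, 1 library), and the study asked how adhesion and proliferation genes respond to UNC5B. According to the methods, a lentivirus carrying UNC5B with a FLAG tag, an mCherry reporter and a puromycin resistance gene under the CMV promoter was used, and infected cells were selected with puromycin. The labels say that mRNA was separated from total RNA before the libraries were made, and the way this was done is not given in the sources used here.

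For UNC5B both Vector and the other library had 0 reads, so the overexpression cannot be seen in these counts. For this reason the latter is named below only by its label, as the OE-UNC5B-labelled library. Vector had 13715566 counted reads and the OE-UNC5B-labelled library 15637137. A floor of 3 reads equals 0.219 CPM in Vector and 0.192 CPM in the OE-UNC5B-labelled library, where CPM is the read count scaled to the size of the library. All 10 AML myeloid markers had reads in both libraries, with sums of 5421 and 3203 CPM. Of these, 5 were higher and 5 lower in the OE-UNC5B-labelled library. LYZ (51742 and 23700 reads) and MPO were 2-fold lower, compared with 4.78% of all genes, 0 were 2-fold higher, and MEIS1 was at a log2 fold change of 0.90 and PTPRC at 0.73. Markers of endothelial, epithelial and erythroid cells each had reads in 1 of 5 genes, with sums of 1 and 2, 5 and 2, and 14 and 8 reads in Vector and the OE-UNC5B-labelled library and with KDR, CDH5, EPCAM, KRT8, HBA1 and ALAS2 at 0 in both libraries. The 5 fibroblast markers held 34 and 12 reads, with DCN at 0, the 5 T and NK cell markers 408 and 419 reads, and the 4 B cell markers 4 and 12 reads. The part of these markers in the results was not tested, and in bulk RNA fewer cells with a transcript and less of it per cell cannot be told apart. Because each group had 1 library, the spread between replicates is unknown and no difference below was tested. The 95% intervals given with the values are Clopper-Pearson intervals computed on the reads, and they cover counting error only.

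7SL is the scaffold on which the SRP proteins assemble, and the particle takes ribosomes that are making secreted and membrane proteins to the endoplasmic reticulum. 7SK holds the elongation kinase P-TEFb in an inactive state, RPPH1 is the catalytic RNA of RNase P, which trims the 5′ ends of tRNAs, RMRP is the RNA of RNase MRP, which acts in rRNA processing, and TERC is the template RNA of telomerase. RNA polymerase III makes 7SL, 7SK, RPPH1 and RMRP, and these mature RNAs, like TERC, have no poly(A) tail of the mRNA kind. MALAT1 gathers in nuclear speckles and NEAT1 is the scaffold of paraspeckles. Both are long RNA polymerase II transcripts, and RNase P cuts the 3′ ends of MALAT1 and of the long form of NEAT1.

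Reads from RN7SL1, RN7SL2 and the pseudogene RN7SL4P can be exchanged in the counting, so the loci were compared by sequence. RN7SL1 lies at chr14:49586580-49586878 on the plus strand, RN7SL2 at chr14:49862550-49862849 on the minus strand and RN7SL4P at chr3:15738515-15738809 on the plus strand of GRCh38, each as a single exon, and GENCODE classes the RN7SL1 and RN7SL2 loci as misc_RNA. RN7SL1 and RN7SL2 differ by 4 substitutions, so that 98.7% of 299 bases are identical, and their longest identical run is 205 bases. RN7SL4P carries 3 substitutions against RN7SL2 over its first 232 bases, after which the sequences part. Of the 75-base runs of RN7SL1, 77.3% occur elsewhere in the genome, compared with 84.1% for RN7SL2, 53.4% for RN7SL4P and 63.8% for RN7SK. For RMRP, RPPH1 and TERC the share is 0%. The reads of the RN7SL copies are therefore uncertain one by one, and the sum is the value used.

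7SL was 32.8-fold lower in the OE-UNC5B-labelled library than in Vector (interval 29.1 to 37.3) when RN7SL1 and RN7SL2 were summed. With all RN7SL pseudogenes added to the sum, the log2 fold change was -4.24. RN7SL1 and RN7SL2 together had 7374 reads in Vector and 264 in the OE-UNC5B-labelled library, which is 538 and 16.9 CPM. The log2 fold change was -5.04 (95% interval of the reads -5.22 to -4.86), and the sum with all pseudogenes lay outside this interval. Of the pseudogene reads in that sum, 195 and 216 came from the 673 that share no 75-base run with RN7SL1 or RN7SL2. The 4 that share one held 230 and 5, and a sum with these 4 alone was not computed. From 0.0538% of the counted reads in Vector, 7SL went to 0.00169%, and its rank by reads from 209 to 8189. Of the 15384 genes with 10 or more reads in all, 13 had a lower log2 fold change than the 7SL sum. RN7SL2 itself and the pseudogenes RN7SL4P and RN7SKP203 are among these 13.

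Both copies were lower. RN7SL1 had 3006 reads in Vector, all but 1 of them on its shorter row, and 143 in the OE-UNC5B-labelled library, a log2 fold change of -4.63 (-4.88 to -4.39). RN7SL2 had 4368 and 121 reads, a log2 fold change of -5.40 (-5.68 to -5.15). RN7SL1 thus held 40.8% of the 7SL reads in Vector (exact binomial interval 39.6% to 41.9%) and 54.2% in the OE-UNC5B-labelled library (47.9% to 60.3%). These intervals do not overlap, but as most 75-base runs are shared between the copies, this split depends on how the counting placed shared reads, which was not tested. RN7SL3, a related locus at chr14:49853616-49853914 with 7 substitutions against RN7SL1, had 4 reads in Vector and 1 in the OE-UNC5B-labelled library.

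RN7SK has a row of another name at its place. The row AL162581.1 (ENSG00000202198) covers chr6:52995620-52995950 on the plus strand, spans the annotated RN7SK gene and holds its whole sequence, so it is given here as the RN7SK locus row and not counted among the members. It had 105 reads in Vector and 16 in the OE-UNC5B-labelled library, 7.66 and 1.02 CPM. The log2 fold change was -2.91 (-3.81 to -2.18), or 7.53-fold lower (4.54 to 14.0). Because 63.8% of the 75-base runs of RN7SK lie elsewhere too, the row was also summed with all RN7SK pseudogenes. This gave -1.59, outside that interval. Of the pseudogene reads in that sum, 37 and 39 came from the 277 that share no 75-base run with RN7SK. The 6 that share one held 27 and 11, and a sum with these 6 alone was not computed.

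**Figure D1:**
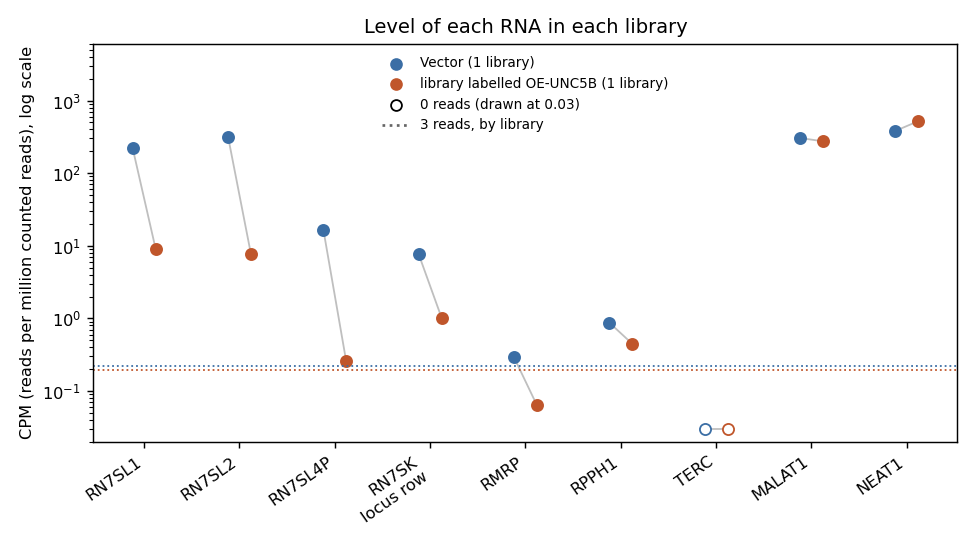
Level of each RNA in Vector (blue) and in the OE-UNC5B-labelled library (orange), in CPM on a log axis, with 1 library per group; dotted lines mark 3 reads in each library and open circles mark 0 reads. RN7SL1, RN7SL2, RN7SL4P and the RN7SK locus row are far lower in the OE-UNC5B-labelled library, while MALAT1 (305 and 275 CPM) and NEAT1 (381 and 519 CPM) keep close levels.

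The catalytic RNAs of RNase P and RNase MRP were near the limit of detection. RPPH1, at chr14:20343075-20343407 on the minus strand, had 12 reads in Vector and 7 in the OE-UNC5B-labelled library. Its log2 fold change of -0.97 (-2.60 to 0.45) lay just short of 2-fold with 0.5 reads added, and the ratio of Vector to the OE-UNC5B-labelled library without them was 2.02. Its interval included both no difference and a larger one than 2-fold. RMRP, at chr9:35657754-35658017 on the minus strand, had 4 reads and 1 read, a ratio without added reads of 4.71 with an interval from 0.466 to 232, which leaves the direction undetermined at this depth. TERC, at chr3:169764520-169765060 on the minus strand, had 0 reads in both libraries, which allows up to 0.219 CPM in Vector and 0.192 CPM in the OE-UNC5B-labelled library. A second row that overlaps TERC, named Telomerase-vert, had 1 read and 0 reads.

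MALAT1 and NEAT1 differed by less than 2-fold. MALAT1, at chr11:65497762-65506516 on the plus strand, had 4182 reads in Vector and 4293 in the OE-UNC5B-labelled library, which is 305 and 275 CPM and a log2 fold change of -0.20 (-0.26 to -0.14). NEAT1, at chr11:65422774-65445540 on the plus strand, had 5223 and 8120 reads, which is 381 and 519 CPM and a log2 fold change of 0.40 (0.35 to 0.45). NEAT1 was 1.32-fold higher (1.28 to 1.37) and MALAT1 1.15-fold lower (1.10 to 1.20). The counts do not separate the short and long forms of NEAT1. The neighbouring loci on chromosome 11 thus had opposite signs, both inside the 2-fold limits.

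Of the 7 RNAs, 4 had 10 or more reads in all (7SL, RPPH1, MALAT1 and NEAT1). Among these, 1 (7SL) was 2-fold lower, 0 were 2-fold higher and 3 were neither. In all genes with at least 10 reads, 4.78% were 2-fold lower and 5.15% were 2-fold higher, with a median log2 fold change of -0.01. Since the choice of members used this contrast, nothing is read from their count.

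**Figure D2:**
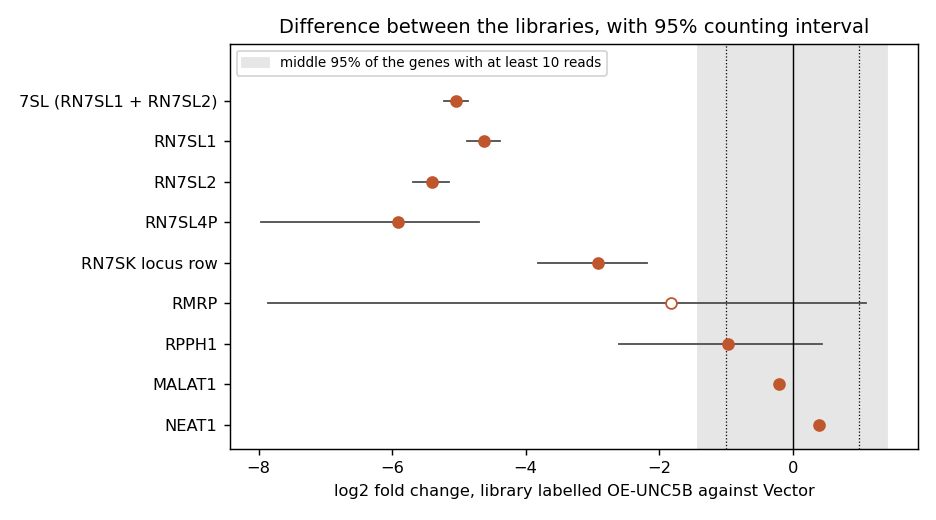
Log2 fold change of the OE-UNC5B-labelled library against Vector with the 95% interval of the reads (lines); the open circle is RMRP, with 5 reads in all, dotted lines mark 2-fold, and grey marks the middle 95% of the genes with at least 10 reads (-1.42 to 1.42). 7SL, its copies, RN7SL4P and the RN7SK locus row lie left of the grey range, and RPPH1, MALAT1 and NEAT1 lie inside it.

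Per length of the locus, 7SL was the highest of these RNAs in both libraries when the reads of its 2 loci were set against the length of 1. In Vector it had 1792 CPM per kb (exact Poisson interval 1750 to 1830), followed by MALAT1 with 34.8 (33.8 to 35.9), the RN7SK locus row with 23.1 (18.9 to 28.0) and NEAT1 with 16.7 (16.3 to 17.2). RPPH1 with 2.63 CPM per kb (1.36 to 4.59) and RMRP with 1.09 (0.296 to 2.79) were neighbours whose intervals overlapped, and TERC was under 0.404, the level of 3 reads. In the OE-UNC5B-labelled library, 7SL had 56.3 CPM per kb (49.7 to 63.5), MALAT1 31.4 (30.4 to 32.3) and NEAT1 22.8 (22.3 to 23.3). Taken singly there, RN7SL1 had 30.5 (25.7 to 35.9) and RN7SL2 25.8 (21.4 to 30.8), both below MALAT1 with overlapping intervals. The first place of 7SL in that library thus depends on the summing. In Vector, RN7SL1 (731) and RN7SL2 (1060) were each above MALAT1. Below 7SL, MALAT1 and NEAT1 in the OE-UNC5B-labelled library stood the RN7SK locus row with 3.09 (1.77 to 5.02), RPPH1 with 1.34 (0.540 to 2.77) and RMRP with 0.239 (0.00604 to 1.33). These last 3 overlapped as neighbours in the order. The deposited FPKM values, which scale reads to a gene length and to the library, gave 733 and 30.6 for RN7SL1 and 1062 and 25.8 for RN7SL2. For MALAT1 they imply a length of 16890 nt, compared with a locus of 8755 nt, and for NEAT1 26096 nt compared with 22767 nt, so the per-length levels above use the locus.

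**Figure D3:**
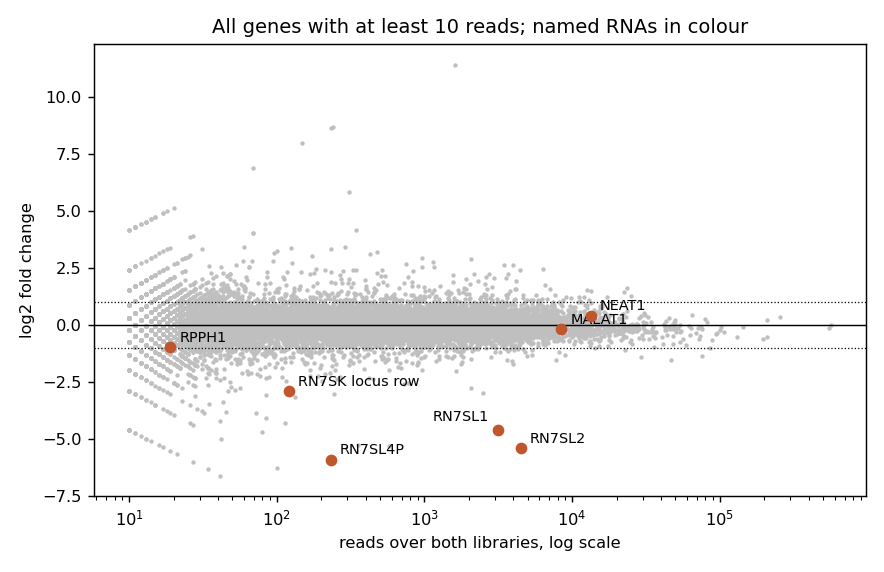
Log2 fold change against the reads over both libraries (log axis) for the 15384 genes with at least 10 reads (grey), with the named RNAs in colour and dotted lines at 2-fold. RN7SL1 and RN7SL2 stand alone at their read number, with no grey point nearby, while MALAT1 and NEAT1 lie within the cloud.

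Among 5928 genes with at least 1000 reads, the 5 closest to 7SL in log2 fold change all differed from it by over 2 on the log2 scale. They included IER2, an immediate early gene, with 1750 and 302 reads and a log2 fold change of -2.77, which is 2.27 away. PRNP, the prion protein gene, was at -2.02, CDC42SE2 at -1.73 and PSME3, a proteasome activator, at -1.71. The likeness was measured as the absolute difference in log2 fold change over the 2 libraries. It says nothing of function.

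Genes beside or across the members were counted in the same region. RPS29, a ribosomal protein gene whose span covers RN7SL1 on the opposite strand, had 2943 reads in Vector and 2787 in the OE-UNC5B-labelled library, a log2 fold change of -0.31 (-0.39 to -0.24). AL627171.2, which covers RN7SL2 on the same strand, had 7 and 11 reads. PARP2, a DNA repair gene next to RPPH1, had 534 and 492 reads, and CCDC107, next to RMRP, had 82 and 106. The antisense rows AP000769.1 and AP000769.2 within MALAT1 had 0 reads. Whether the counting used strand is not given in the sources used here, so reads of overlapping genes on opposite strands cannot be told apart.

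The human genome holds many copies of 7SL and 7SK that have lost their function, and these pseudogenes were divided by sequence. Of the RN7SL pseudogenes with a sequence in GENCODE, 4 share a run of at least 75 bases with RN7SL1 or RN7SL2, and these held 230 reads in Vector and 5 in the OE-UNC5B-labelled library, a log2 fold change of -5.63 (-7.40 to -4.52). RN7SL4P alone had 229 and 4 of them, a log2 fold change of -5.91 (-7.96 to -4.70), so the group value is almost wholly that of RN7SL4P. RN7SL5P shares 135 of its 247 runs of 75 bases, compared with 118 of 221 for RN7SL4P, and had 0 reads in both libraries. The 673 that share no such run held 195 and 216 reads, with a log2 fold change of -0.09 (-0.37 to 0.20). In this group RN7SL657P had 19 and 22 reads and RN7SL381P 8 and 22. The origin of the RN7SL4P reads was not tested.

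The RN7SK pseudogenes were read in the same way. The 6 with a shared run held 27 and 11 reads (-1.49, -2.69 to -0.47), and the 277 without one held 37 and 39 (-0.16, -0.85 to 0.53). RN7SKP203, with a shared run, had 19 reads in Vector and 0 in the OE-UNC5B-labelled library, while RN7SKP80, which also has one, had 6 and 10. RN7SKP70 had 7 and 10 reads. The division by shared runs was added after the values were seen.

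Other classes of noncoding RNA were summed in the same way. The Metazoa_SRP rows, which are fragments annotated by likeness to 7SL, held 27 and 26 reads over 193 rows. The snoRNA rows, whose RNAs guide the modification of rRNA, held 157 and 130 reads, a log2 fold change of -0.51 (-0.86 to -0.16). Of the 8 with at least 10 reads, 3 were 2-fold lower, compared with 4.78% of all genes. These 3 were SNORD3A, SNORD3B-1 with 10 and 4 reads and SNORD91B with 9 and 3. The intervals of SNORD3B-1 (-3.7 to 0.24) and SNORD91B (-4.34 to 0.18) included no difference. SNORD3A and SNORD3B-1 are both SNORD3 rows, and whether they share reads was not tested. SNORD17 had 41 and 44 reads, SNORA73B 45 and 34, SNORA71B 14 and 19, and SNORD3A, the U3 RNA named here after its values were seen, 14 and 4. The scaRNA rows, which act on snRNAs in Cajal bodies, held 52 and 46 reads (SCARNA9 20 and 24, SCARNA12 13 and 11, SCARNA13 6 and 6). The snRNA rows held 1 and 2 reads, too few for a comparison. Mitochondrial rRNA held 100372 and 131872 reads, a log2 fold change of 0.16 (0.15 to 0.17), with MT-RNR2 at 0.20 and MT-RNR1 at -0.20.

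Replication-dependent histone genes were summed as well. Their typical mRNAs also lack a poly(A) tail, but these counts do not show whether the transcripts counted lacked one. The histone genes held 584 reads in Vector and 1060 in the OE-UNC5B-labelled library, a log2 fold change of 0.62 (0.48 to 0.77). Of 27 with at least 10 reads, 8 were 2-fold higher and 2 were 2-fold lower, compared with 5.15% and 4.78% of all genes. H2BC12 had 120 and 218 reads, H2AC6 51 and 128, and H1-2 36 and 124. Y RNAs, vault RNAs and nuclear rRNA were not analysed here.

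**Figure D4:**
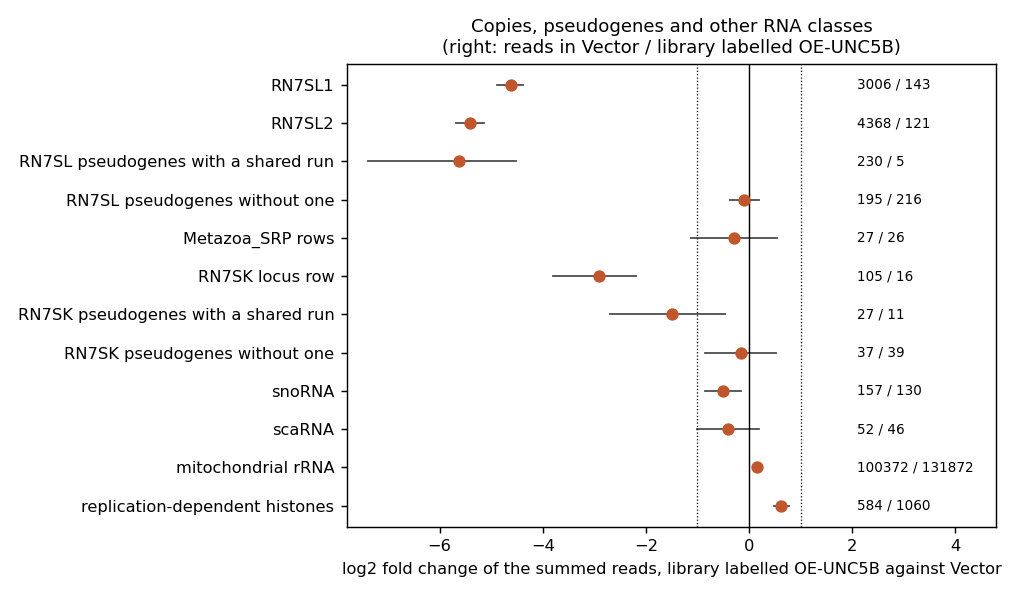
Log2 fold change of the summed reads of each copy, pseudogene group or RNA class, with the 95% interval of the reads and the reads of each library at the right; dotted lines mark 2-fold. RN7SL1, RN7SL2, the RN7SL pseudogenes with a shared run and the RN7SK locus row lie left of -2, and the pseudogenes without a shared run lie near 0.

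Length was examined because the RNAs that were low are short. There were 97 rows with an FPKM length of at most 400 nt and at least 50 reads. Among them, 7 were 2-fold lower and 2 were 2-fold higher. The shares of all genes, 4.78% and 5.15%, are for at least 10 reads and so not at matched depth. With at least 50 reads, the calls over all genes fell from 736 lower and 793 higher to 296 and 360. A share of all genes at that depth is not given, so nothing is read from these counts. The median log2 fold change of the short rows was -0.33, and that of all genes with at least 10 reads -0.01. RN7SL4P, RN7SL2, RN7SL1 and the RN7SK locus row were 4 of the 7 and the lowest of these rows, and the next, the pseudogene SNRPGP10, had 59 and 30 reads. Reads of RN7SL1, RN7SL2 and RN7SL4P can be exchanged in the counting, so these rows are not separate cases. The set of short rows was chosen after the values were seen. The part of RNA size or mRNA separation in the 7SL difference was not tested.

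Genes whose proteins bind, make or degrade these RNAs were compared in 8 lists. Of 113 gene rows with at least 10 reads, 0 were 2-fold higher and 1 was 2-fold lower, together 0.885%, compared with 9.94% of all genes. These rows mostly held far more than 10 reads. With at least 50 reads, the calls over all genes fell from 736 lower and 793 higher to 296 and 360. A share of all genes at matched depth is not given, so nothing is read from this gap. The list medians lay between -0.38 and 0.03, compared with -0.01 for all genes. No list came near the log2 fold change of 7SL.

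In the SRP itself, 7 of the 8 protein and receptor genes had a negative log2 fold change, and 1 passed 2-fold. SRP9, which with SRP14 binds the Alu domain of 7SL and delays elongation, fell from 3195 reads to 1626, a log2 fold change of -1.21 (-1.30 to -1.12). SRP14, its partner, had 3262 and 3061 reads (-0.33, -0.40 to -0.26). SRP54, the GTPase that binds the signal peptide, was at -0.39, SRP19 at -0.20 and SRP68 at -0.19. SRP72 was at 0.24, the only positive value. The receptor subunits SRPRA and SRPRB were at -0.27 and -0.04, and the median of the list was -0.24. SRP9 has a processed pseudogene, SRP9P1, which had 420 and 502 reads (0.02, -0.17 to 0.21), and the sum of both was at -1.0 (-1.08 to -0.92). Reads of SRP9 and SRP9P1 can be split by the counting, so the SRP9 value is uncertain.

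For 7SK, 0 of 7 genes of the particle and of P-TEFb passed 2-fold, and the median was -0.07. MEPCE, the enzyme that caps 7SK, was at -0.24, HEXIM1, the inhibitor of P-TEFb, at 0.06 and CCNT1, the cyclin of P-TEFb, at -0.07. CDK9, its kinase, had 879 and 937 reads (-0.14), and LARP7, which binds the 3′ end of 7SK, had 704 and 728 (-0.19). The values furthest from 0 were those of CCNT2, another cyclin of P-TEFb, with 211 and 386 reads (0.63, 0.39 to 0.88), and of HEXIM2 with 11 and 19 (0.53, -0.59 to 1.77).

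The 11 RNase P and RNase MRP protein genes had the lowest median of the lists, -0.38, with 9 of 11 at a negative log2 fold change and 0 past 2-fold. POP4 had 817 reads in Vector and 512 in the OE-UNC5B-labelled library (-0.91, -1.07 to -0.75), RPP25 774 and 596 (-0.61) and POP1 919 and 816 (-0.41). RPP40 was at 0.15. RPPH1, the RNA of this enzyme, had too few reads to be placed against them.

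None of the 12 genes of telomerase and TERC maturation passed 2-fold, with a median of -0.19. NHP2, a protein of H/ACA particles such as telomerase, was at -0.51, DKC1, the pseudouridine synthase of the same particles, at 0.21 and PARN, which trims the 3′ end of TERC, at -0.06. TERT, the reverse transcriptase, had 196 reads in Vector and 215 in the OE-UNC5B-labelled library (-0.10, -0.39 to 0.18). The mRNA of the catalytic subunit was thus counted in both libraries while TERC had 0 reads.

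Around NEAT1, the 15 paraspeckle protein rows had a median of 0.00 and 0 past 2-fold. HNRNPK was at 0.00 and SFPQ at 0.09. NONO, which forms dimers with SFPQ on NEAT1, had 4803 and 6480 reads (0.20). MATR3 is counted in 2 rows whose log2 fold changes were -0.12 and 0.17. Around MALAT1, the 10 genes of nuclear speckles and of 3′ end processing had a median of -0.07 and 0 past 2-fold. SRRM2, a core protein of speckles, was at 0.13, SRSF1, a splicing factor that MALAT1 binds, at -0.31 and PNN at 0.01. ELAC2, the nuclease that cuts tRNA 3′ ends, was at -0.59.

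The 33 genes of RNA polymerase III and its factors had a median of 0.03 and 0 past 2-fold, with values between -0.61 (POLR3K) and 0.58 (SNAPC1). MAF1, the repressor of this polymerase, was at -0.17, POLR1D, a shared subunit, at 0.18 and SSB, the La protein that binds the 3′ ends of new transcripts, at -0.18. In the 17 genes of nuclear RNA decay the median was -0.05, again with 0 past 2-fold. XRN2 was at 0.31, MTREX, the helicase of the nuclear exosome, at 0.31, and DIS3 at -0.05.

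Of 14 other long noncoding RNAs with at least 10 reads, 2 were 2-fold higher and 1 was 2-fold lower, compared with 5.15% and 4.78% of all genes. LINC00667 rose from 108 to 294 reads (1.20, 0.89 to 1.54) and LINC-PINT from 25 to 60 (1.01, 0.33 to 1.76). MIR17HG, the host transcript of the miR-17-92 cluster, fell from 107 to 52 reads (-1.27, -1.78 to -0.79). The median of the list was 0.11. MALAT1 and NEAT1 lay within the range of these RNAs.

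**Figure D5:**
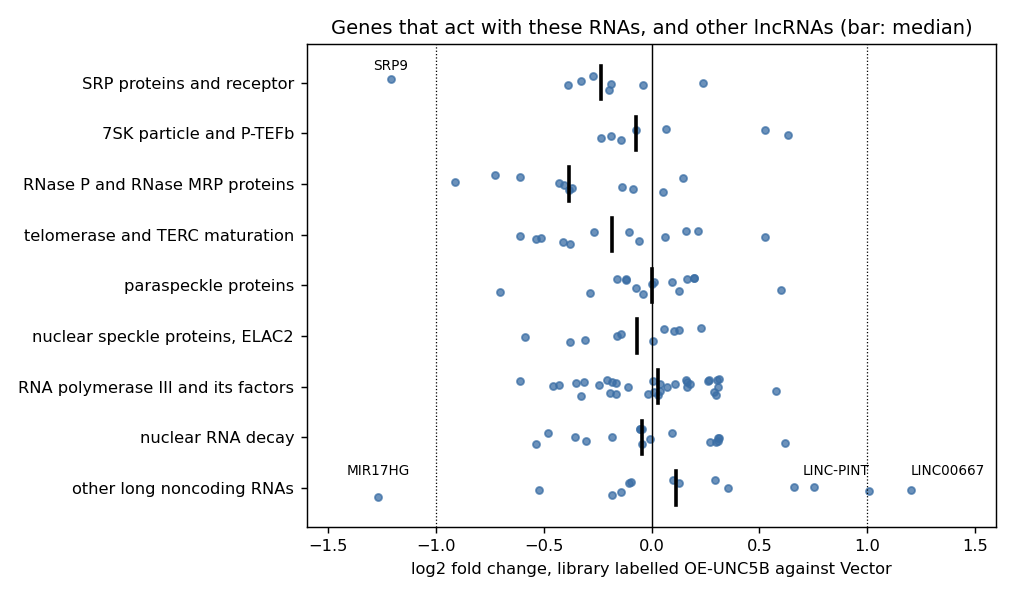
Log2 fold change of each gene with at least 10 reads in 8 lists of genes that act with these RNAs and 1 list of other long noncoding RNAs (points, with vertical jitter for display) and the median of each list (bar); dotted lines mark 2-fold and genes past them are named. Of the 113 points of the 8 lists SRP9 lies past 2-fold, and of the other long noncoding RNAs MIR17HG (lower), LINC-PINT and LINC00667 (higher).

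The members differ in composition as well as in length. The 5 short RNAs RN7SL1, RN7SL2, RMRP, RPPH1 and TERC have a GC content between 62.7% and 66.7%, compared with 58.0% for the RN7SK locus row, 40.3% for MALAT1 and 44.1% for NEAT1. The longest run of A is 4 bases in RN7SL1 and RN7SL2 and 3 bases in the RN7SK locus row, whereas it is 13 in MALAT1 and 22 in NEAT1. It is 2 bases in RPPH1, 3 in RMRP and 6 in TERC. Of the 8 symbols, MALAT1 alone matched the RefSeq promoter table (GRCh38.p14), where windows run from 250 bases before the start to 50 after it. On both strands, its window held TATAAA, as did 11.5% of 35116 windows, and none of TATATA, ATGCAAAT, TGACGTNA and CACGTG, which were in 3.99%, 1.77%, 3.01% and 7.26% of the windows.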

How the data were processed

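RNA-seq of Molm13 cells (1 Vector library, 1 library labelled OE-UNC5B) was made with the VAHTS Universal V6 kit and read on an Illumina HiSeq platform. The submitters' processing notes name bcl2fastq 2.19, HISAT2 2.0.4, StringTie 1.3.0 and GRCh38. The counting tool, its handling of reads that match several places, the annotation release and the use of strand are not given in the sources used here. The authors deposited a table with the raw count of reads for each gene. The authors also deposited FPKM values, scaled to gene length and library.

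TMM factors (edgeR 4.0.16 in R 4.3.3) set the scale of the counts. Log2 fold changes used 0.5 added reads, and genes with 10 or more reads in all were compared. A gene counts as past 2-fold at an absolute log2 fold change of at least 1. Intervals (scipy 1.17.1) are 95% Clopper-Pearson intervals of the reads, or exact Poisson intervals for levels, and 3 reads is the floor. With 1 library per group, edgeR's quasi-likelihood test could not be fitted and there was no test. The procedure was tested on simulated data. Sequences and loci came from GENCODE 44, which holds 49659 of the 50868 gene identifiers, and the same genome build. Runs of 75 bases were searched with BLAST 2.17.0.

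The members and lists were chosen with earlier results of these data known. The rule for named genes takes all members and UNC5B, the genes of each list past 2-fold or otherwise its 3 genes with the most reads, the 3 rows with the most reads per RNA class, the 5 genes with at least 1000 reads nearest to 7SL, and genes that overlap a member. Of the items this rule names, some are not reported here. The other genes named were chosen after their values were seen. Other settings tried were size factors from DESeq2 1.42.0, library totals, TMM from protein-coding genes, FPKM (minimum 1) with a pseudocount of 0.1 or 1, 2 added reads, no filter, at least 50 reads, and folds of 1.5 and 4. There were 0 columns of other samples.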

Additional observations from a re-analysis of the deposited data

How the results depend on the processing

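No paired analysis was possible because each group had 1 library, which also leaves no replicate to leave out. The log2 fold change of 7SL was -5.04. It lay inside its counting interval, between -5.03 and -4.97, with library totals, DESeq2 size factors, TMM from protein-coding genes, FPKM with 0.1 or 1 added, 2 reads added and library totals without the members. By construction it was -4.63 with RN7SL1 alone, -5.40 with RN7SL2 alone and -4.24 with all RN7SL pseudogenes added, with or without a shared run. The count of members past 2-fold stayed at 1 lower and 0 higher under the 6 settings run on it. Of the genes in general, 736 were 2-fold lower and 793 higher. FPKM with 0.1 added gave 281 lower and 392 higher, FPKM with 1 added 130 and 165, no filter 3078 and 2887, at least 50 reads 296 and 360, 1.5-fold 1923 and 1993, and 4-fold 176 and 158. Protein-coding genes alone gave 510 lower and 469 higher, so that lower genes were then the more numerous. These settings change the genes compared, the pseudocount or the threshold. Added after seeing the data, the RN7SK locus row summed with all RN7SK pseudogenes, with or without a shared run, was at -1.59. SRP9 with SRP9P1, also added then, was at -1.0, at the 2-fold limit. TMM placed the median gene 0.047 lower on the log2 scale than library totals. Depth limits RMRP, RPPH1 and TERC, which had at most 12 reads in a library.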
